A study of Mus musculus with 32 samples.

Results

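The 42 genes described here copy DNA or make the deoxynucleotides it is built from. They were chosen by name, with earlier results of these data known. All 42 were found among the 33924 genes counted by RNA sequencing in 32 libraries of progenitors sorted from mice. The study asked what happens to a myeloproliferative neoplasm when its driver, the activated kinase Jak2V617F, is switched off. All libraries carry the label Jak2v617f. Per the labels' protocols, the allele was switched on with Dre mRNA in cultured cells, which were then placed into lethally irradiated mice, and no group without the mutation was analysed here. Vehicle-treated mice (labelled day 0) were compared with mice given tamoxifen, which activates Cre and removes Jak2V617F (labelled days 3 and 7), or ruxolitinib, a small-molecule JAK inhibitor (labelled day 7). The promoter that drives Cre, the age and sex of the mice and the share of recipient cells left are stated in none of the sources used.

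The sorted cells were LSK cells, the stem and multipotent progenitor fraction (lineage negative, Sca1+, Kit+), and MEP, the megakaryocyte-erythroid progenitors. Tamoxifen libraries and their vehicle share the batch label A, and ruxolitinib libraries and their vehicle share the batch label C. In LSK cells there were 4 libraries of vehicle A, 3 of tamoxifen day 3, 4 of tamoxifen day 7, 2 of vehicle C and 3 of ruxolitinib. In MEP the numbers were 3, 4, 3, 3 and 3. The labels do not state that each library of a group came from a separate animal, so p-values measure the spread between these libraries. Vehicle libraries of both batches carry the same sample numbers (12 and 18 in LSK cells, 12, 32 and 33 in MEP), and each treatment was compared with the vehicle of its own batch.

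Before a cell copies its DNA, the origin recognition complex (Orc1, Orc6) with Cdc6 and Cdt1 loads the ring-shaped Mcm helicase onto chromatin, a step called licensing. Cdc45 and the GINS complex (Gins1 to Gins4) then turn the ring into an active helicase, Pcna is clamped around the DNA by the Rfc loader, and primase and the polymerases synthesise the new strands. Ribonucleotide reductase (Rrm1, Rrm2), thymidine kinase (Tk1), thymidylate synthase (Tyms) and dUTPase (Dut) supply the deoxynucleotides, and many genes of the set are classic targets of E2F transcription factors at the entry to S phase. Erythroid progenitors divide quickly, and JAK2 carries the signal of the erythropoietin and thrombopoietin receptors.

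The promoter windows of 4 genes are shown because the results below turn on these genes: Mcm5 and Mcm6 are subunits of the same ring whose levels parted in these libraries, and Rrm1 and Rrm2 are the 2 subunits of ribonucleotide reductase. Each window has 130 bases, from 160 to 31 bases before the RefSeq start of the gene on build GRCm38.p6, and lies in no annotated exon. Sequences are credited to RefSeq and run 5′ to 3′ on the strand of the gene. Capitals mark matches to 4 E2F spellings (TTTGGCGC, TTTCCCGC, TTTCGCGC and TTTGCCGC, on either strand, overlaps allowed) and to the CCAAT box (CCAAT or ATTGG). Mcm5 lies on the plus strand at chr8:75109349-75109478, Mcm6 on the minus strand at chr1:128359736-128359865, Rrm1 on the plus strand at chr7:102441535-102441664 and Rrm2 on the plus strand at chr12:24708094-24708223.
Mcm5: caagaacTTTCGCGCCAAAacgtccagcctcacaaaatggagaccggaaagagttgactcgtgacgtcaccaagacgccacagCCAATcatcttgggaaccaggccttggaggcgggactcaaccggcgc
Mcm6: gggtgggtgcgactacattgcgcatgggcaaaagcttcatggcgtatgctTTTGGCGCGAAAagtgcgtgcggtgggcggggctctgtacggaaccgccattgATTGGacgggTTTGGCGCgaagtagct
Rrm1: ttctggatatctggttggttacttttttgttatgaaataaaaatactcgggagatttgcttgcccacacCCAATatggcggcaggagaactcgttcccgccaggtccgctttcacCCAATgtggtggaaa
Rrm2: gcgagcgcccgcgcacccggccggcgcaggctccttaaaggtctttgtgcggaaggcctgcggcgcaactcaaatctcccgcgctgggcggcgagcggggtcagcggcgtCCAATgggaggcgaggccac
The Mcm5 window holds 2 overlapping E2F spellings and 1 CCAAT box, and the Mcm6 window holds 3 E2F spellings, 2 of them overlapping, and 1 CCAAT box. The Rrm1 window holds 2 CCAAT boxes and the Rrm2 window holds 1, and neither window holds one of the E2F spellings.

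RefSeq promoters, taken from 250 bases before to 50 after the start, were matched for 35 of the 42 genes. Those of Gins1, Gins2, Gins4, Mcm4, Pole, Prim2 and Rfc2 were not among them. An E2F spelling was present in 13 of the 35 (37.1%), against 704 of 27025 promoters of all genes (2.6%). A CCAAT box was present in 22 (62.9%, against 41.1% of all promoters), and the CHR spelling TTTGAA, on either strand, in 5 (14.3%, against 20.2%). A match describes letters in a window and does not show binding.

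Depth ran from 11.2 to 55.5 M counts per library. Levels are CPM (counts of a gene per mega-count, M, of the library) on library sizes scaled by the trimmed mean of M values (TMM), separately in each cell type unless stated. Ly6a, which encodes Sca1, stood at 10.9 to 181 CPM in LSK libraries and at 0 to 1.37 in MEP libraries, and Gata1, a transcription factor of the erythroid and megakaryocyte lineages, at 98.0 to 280.1 and 364 to 1479. Jak2 counts do not separate the mutant from the normal allele and ran from 14.3 to 32.9 CPM in LSK cells and from 11.8 to 38.0 in MEP. A gene was called at an adjusted p below 0.05 in edgeR's quasi-likelihood test, adjusted over all genes tested (26930 in LSK cells and 25274 in MEP), and well-expressed genes are those with a mean of at least 10 CPM. All 42 members passed the count filter in both cell types, and 41 were well expressed, the exception being Fen1. Reads of Fen1 cannot be told from those of its antisense gene Gm10143, because no source used here gives the strand setting. The same holds for Chaf1a and Ubxn6, and for Gins2 and Gse1. Shorter overlaps with genes on the opposite strand occur in other members, among them Rfc2, E2f8 and Rfc5.

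Under vehicle A, MEP held more mRNA of the replication set than LSK cells. On the scale of CPM per kilobase of exon, Rrm2 had the highest level in MEP (430.9), followed by Mcm5 (256), Mcm3 (246), Mcm4 (191), Mcm7 (182) and Pcna (173). The length used is that of all annotated exons of a gene, so these ranks depend on the annotation. It is 11012 bases for Rrm1 (longest transcript 5475) and 6956 for Mcm2 (longest transcript 3494). Per gene, without a length, Rrm1 stood at 1529 CPM and Rrm2 at 1194. At the low end were Cdt1 (9.66), E2f1 (4.18), Fen1 (2.98) and Chaf1a (1.34), the large subunit of the CAF-1 histone chaperone. In LSK cells Mcm3 led (195), ahead of Mcm6 (169), Mcm5 (153) and Mcm7 (135), and Rrm2 (118) stood below these ring subunits. Rfc5, a clamp loader subunit, stood at 15.2 in MEP.

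With all 32 libraries scaled together, 22 of 42 members were called higher in MEP than in LSK cells under vehicle A and none lower. Of all 28378 genes tested 8.7% were called higher, and 24.1% of well-expressed genes. The median member stood 0.79 log2 units higher in MEP, against 0.19 for well-expressed genes. On this joint scale Rrm2 averaged 1298 ± 276 CPM (SD, n = 3) in MEP and 277.5 ± 41.4 (SD, n = 4) in LSK cells, a difference of 2.23 ± 0.28 (SE) on the log2 scale (edgeR, adjusted p = 3.386e-07). Next came Fen1 (2.05), Cdc6 (1.84), Rfc4 (1.62), Orc6 (1.61) and Orc1 (1.60), all above the median member. Of the other subunits of the origin recognition complex, Orc2 (1.68), Orc3 (0.82) and Orc5 (2.24) were also called higher and Orc4 was not (0.69, edgeR adjusted p = 0.116). Among these 22, called from the same values, every MEP library lay above every LSK library for 19. The share over all genes was not counted.

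**Figure D1:**
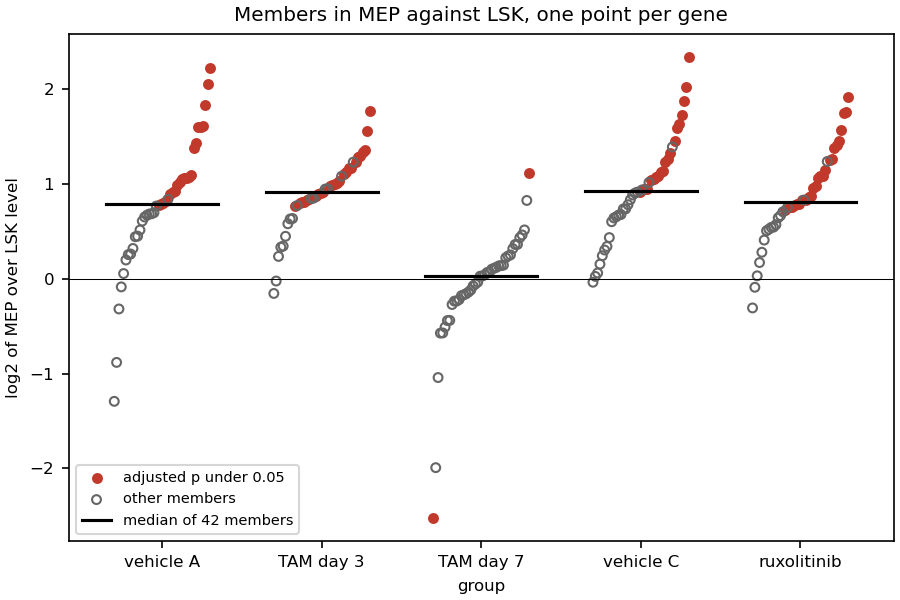
Log2 ratio of the level in MEP to that in LSK cells for each of the 42 members (1 point per gene) in the 5 matched groups, from a fit of all 32 libraries; filled points have an adjusted p below 0.05 and black bars are medians. The medians are 0.79 under vehicle A, 0.91 at tamoxifen day 3, 0.03 at tamoxifen day 7, 0.93 under vehicle C and 0.81 under ruxolitinib.

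The same contrast was repeated in the other groups. Higher in MEP were 19 members under vehicle C (8.09% of all genes and 22.2% of well-expressed genes), 26 at tamoxifen day 3 (8.4% and 24.2%) and 25 under ruxolitinib (12.3% and 33.9%), with none lower. At tamoxifen day 7 only Cdc6 was called higher (1.12 ± 0.27 SE, edgeR adjusted p = 0.00676) and only Rfc5 lower (-2.52 ± 0.67 SE, adjusted p = 0.0158), where 1.48% of all genes and 3.93% of well-expressed genes were called higher. The median member differed by 0.03 there, against -0.10 for well-expressed genes. Single libraries moved these counts: 8 members were called under vehicle C without LSK replicate 1 and likewise without LSK replicate 2, 14, 8 and 12 at day 3 without LSK replicate 2, LSK replicate 3 or MEP replicate 1, and 15 and 12 under ruxolitinib without LSK replicate 2 or 3. At day 7 the Rfc5 call was lost without LSK replicate 4 or MEP replicate 1 or 2, and the Cdc6 call without MEP replicate 3. With the sample number as a block in limma voom no member was called lower.

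At tamoxifen day 7, MEP had lower levels of much of the replication set. Of the 42 members 14 fell and none rose, against 7.03% of all genes and 20.4% of well-expressed genes called lower and 1.38% of all genes called higher. The median log2 change was -0.72, against 0.21 for all genes tested and -0.38 for well-expressed genes, and 39 of the 42 changes were negative. The largest falls were in Rfc5 (-3.45), Mcm6 (-2.24), Rrm2 (-2.23), Dut (-2.20), the GINS subunit Gins4 (-1.89), Orc6 (-1.15), Tk1 (-1.13) and Chaf1b (-1.11), the middle subunit of CAF-1. Rrm2, Rfc5, Mcm6, Dut, Gins4, Orc6 and Chaf1b passed in all 14 alternative settings and left-out libraries tried on single members, whereas Rrm1, Rfc4, Orc1 and Tk1 passed in 11 to 13 and Pcna, Gins1 and Rpa2 in 7 or 8. In bulk samples, fewer cycling cells and less of these mRNAs per cell cannot be told apart.

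**Figure D2:**
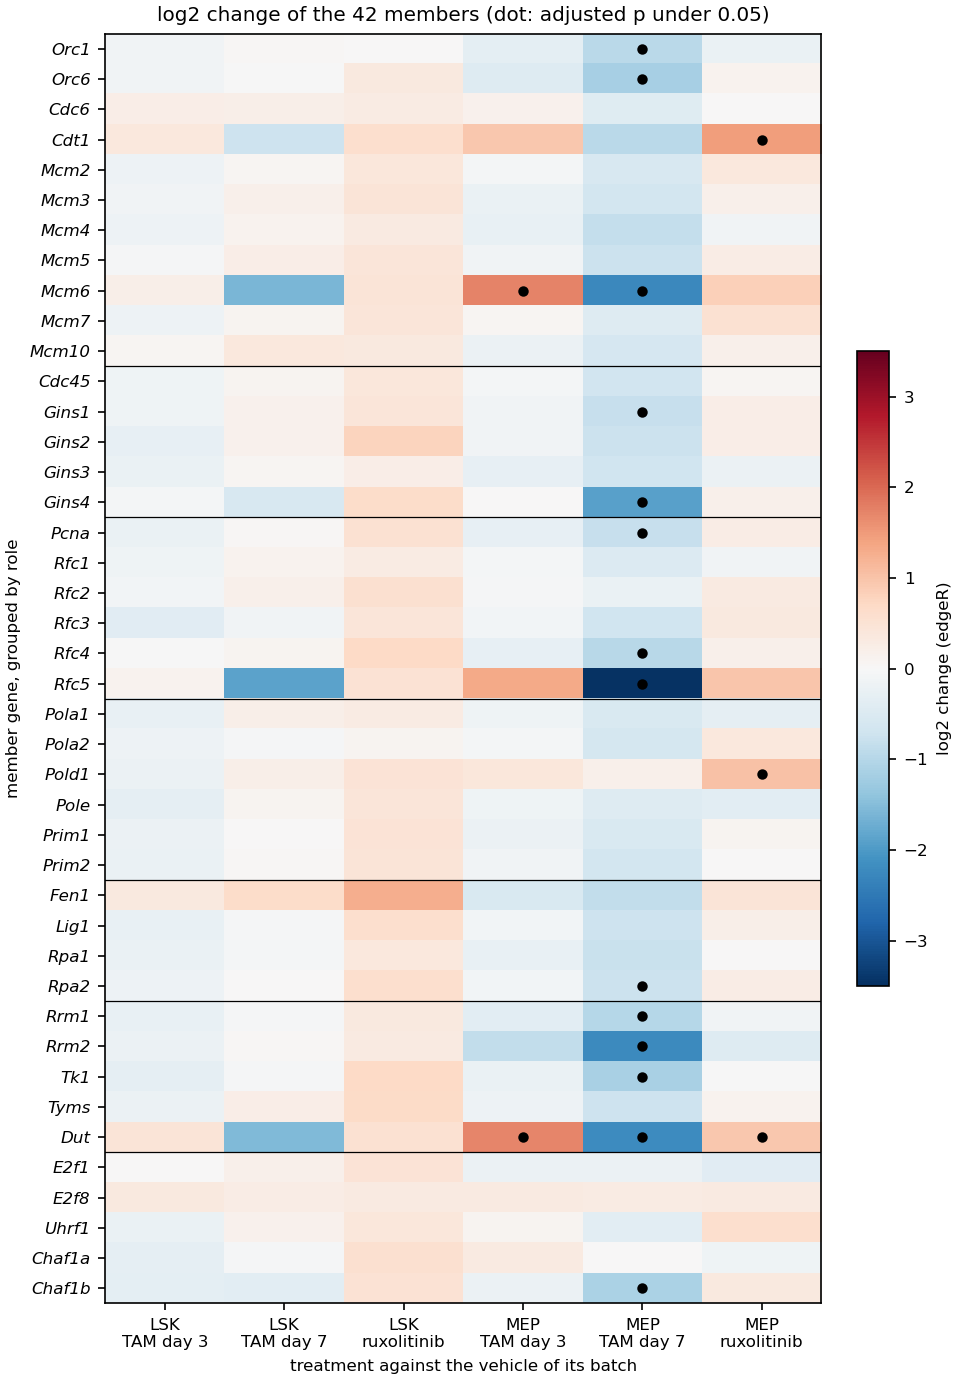
Log2 change (edgeR) of each of the 42 members, in rows grouped by role, for the 6 treatment comparisons, in columns; blue is lower and red higher than the vehicle of the batch, and a dot marks an adjusted p below 0.05. Dots number 14 in MEP at tamoxifen day 7, 3 under ruxolitinib and 2 at day 3, and there are none in LSK cells.

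The size of this shift depended on scaling. TMM factors of the day 7 MEP libraries were 1.24 to 1.92, against 0.943 to 1.18 in vehicle A, and the highest belonged to replicate 2, the library with the fewest counts (11.2 M). Without any scaling factor, the members together took 13990 to 16790 CPM in vehicle A and 10670 to 13030 at day 7, so the groups did not overlap. Refitted on well-expressed genes alone, 18 members were called lower and 2 higher (Pold1, 0.52, and E2f8, 0.65), with 19.1% of those genes lower and 15.2% higher, and the median member change was -0.33. Scaled to total counts, 10 were lower and 2 higher, with a median of -0.25, and the share of all genes called was not counted there. The gap between the median member and the median well-expressed gene was -0.34, -0.35 and -0.36 in these 3 fits. Leaving out vehicle A replicate 2 gave 7 members lower, and leaving out day 7 replicate 2 gave 8.

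**Figure D3:**
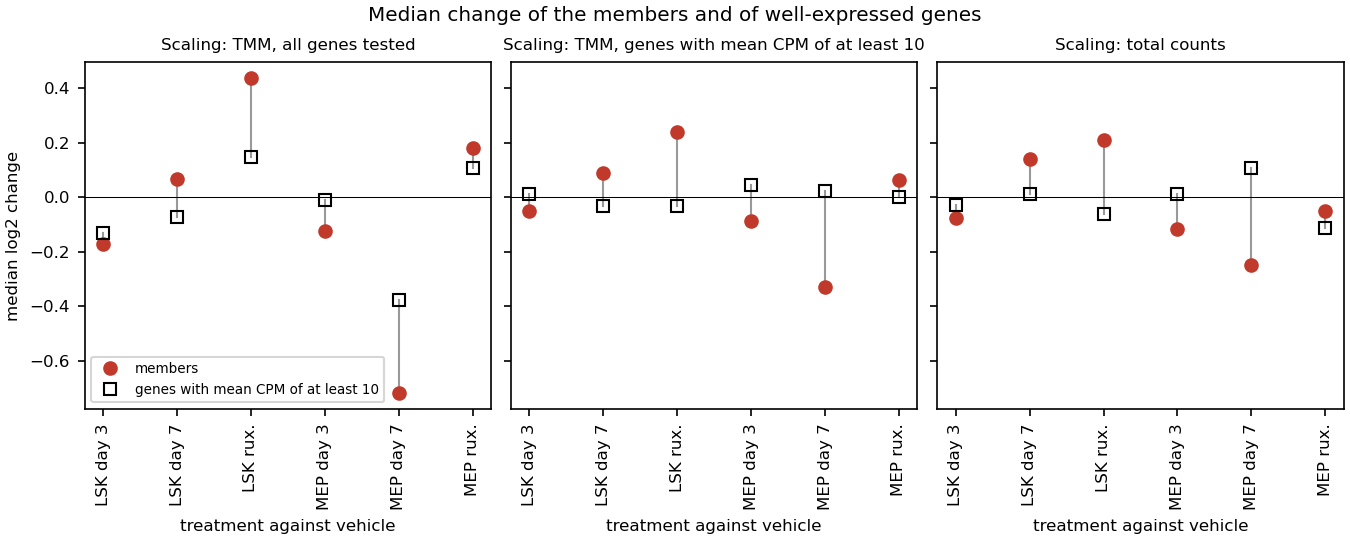
Median log2 change of the members (filled circles) and of genes with a mean CPM of at least 10 (open squares) for 6 treatment comparisons, under 3 scalings of the library sizes. In MEP at tamoxifen day 7 both medians shift with the scaling, from -0.72 to -0.25 for the members, while the gap between them stays between -0.34 and -0.36.

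Markers of other cells moved in the same comparison. Of 13 megakaryocyte markers tested 9 rose in day 7 MEP, and their summed level was 348 to 572 CPM against 93.9 to 158 in vehicle A. Of 13 granulocyte and monocyte markers 4 rose, with a sum of 82.1 to 114 against 25.8 to 32.2, and of 14 erythroid markers 8 fell, with a sum of 10100 to 15710 against 14110 to 22130. Without a scaling factor the erythroid sum was 19370 to 20780 against 16650 to 21400, so the groups overlapped. Stem cell markers (4 of 14 rose) summed to 209.6 to 251 CPM against 137.5 to 166, lymphoid markers (2 of 12 rose) to 54.5 to 77.8 against 19.4 to 22.4, and mast cell and basophil markers (2 of 7 rose) to 25.2 to 33.9 against 11.8 to 15.5. No marker of these lists was at 0 in all libraries of either group. Their part in the fall of the replication genes was not tested.

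Nucleotide synthesis had the lowest median of the 7 roles at day 7 (-1.13), with 4 of 5 genes lower. Rrm2, the small subunit that sets the activity of ribonucleotide reductase through the cell cycle, stood at 1389, 1228 and 966 CPM in vehicle A, at 847, 618, 656 and 496 at day 3 and at 299.5, 169.6 and 296 at day 7. The 3 groups did not overlap and each later group lay below the one before. Here and below, lack of overlap in called members comes from the values that gave the call. Its share over all genes was not counted. The fall at day 7 was 4.68-fold (-2.23 ± 0.27 SE, edgeR adjusted p = 1.73e-06), and over the alternatives its log2 change ran from -2.45 to -1.76.

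Rrm1, the large catalytic subunit, fell less. Its levels were 1575, 1723 and 1290 CPM in vehicle A and 844, 549 and 895 at day 7, with no overlap (2.0-fold lower, SE 0.25 on the log2 scale, adjusted p = 0.0101). Tk1, which salvages thymidine, stood at 221, 291 and 182 CPM in vehicle A and at 117, 75.1 and 126 at day 7, again without overlap (-1.13 ± 0.29 SE, adjusted p = 0.0114). Tyms, which makes thymidylate from dUMP, lay lower in every day 7 library (145 to 226 CPM) than in any vehicle library (272 to 341) but missed the threshold (-0.73 ± 0.23 SE, adjusted p = 0.0537). The fifth gene, Dut, is described with Mcm6.

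**Figure D4:**
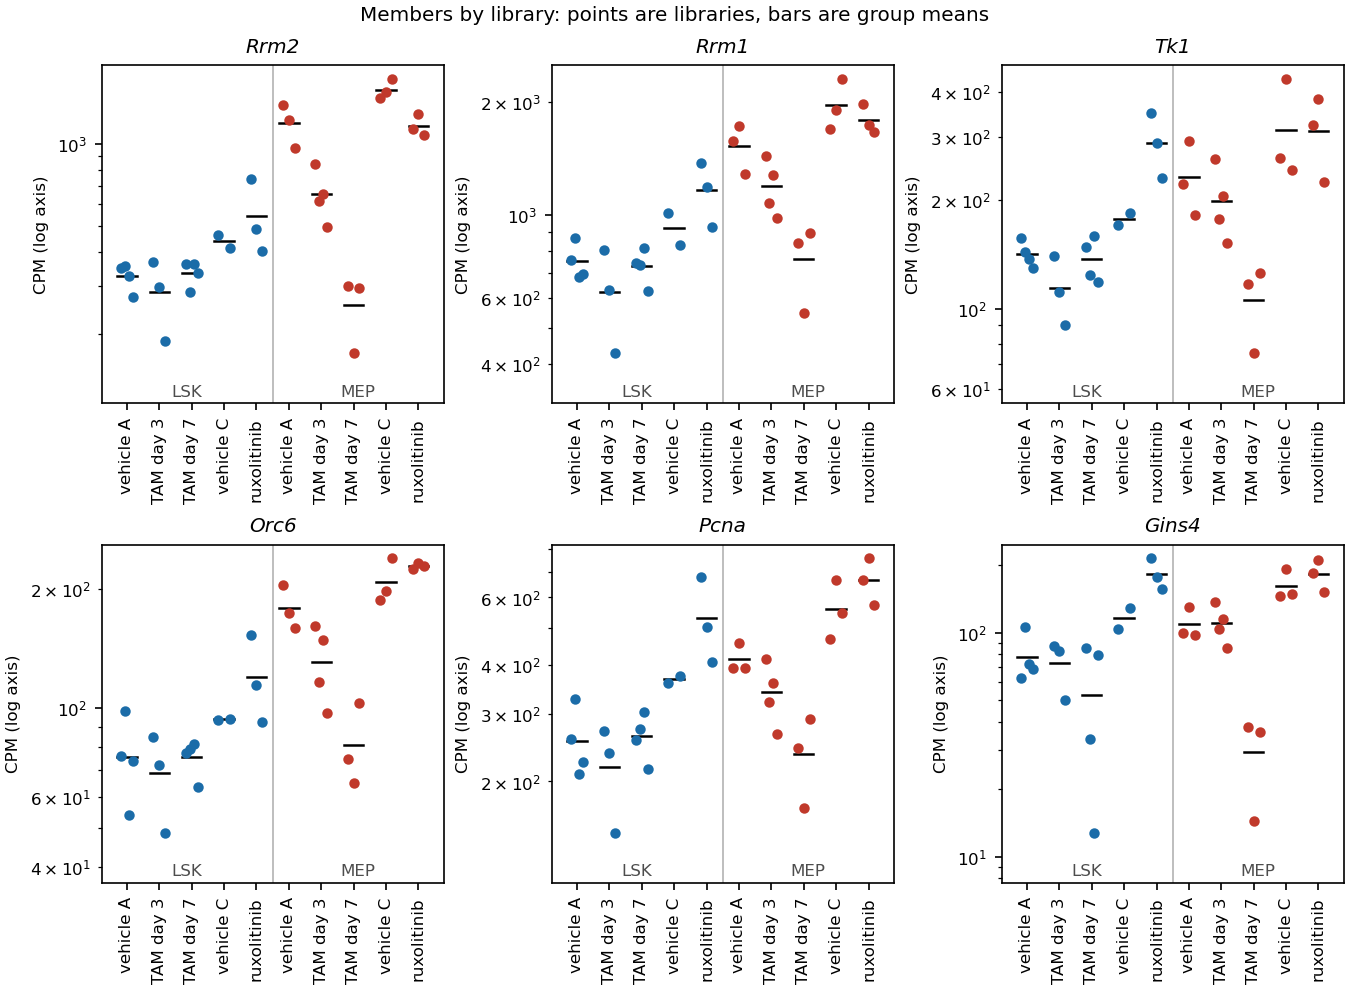
CPM on a log axis for Rrm2, Rrm1, Tk1, Orc6, Pcna and Gins4 in every library (points; bars are group means), with LSK groups on the left and MEP groups on the right of each panel. In MEP the 3 tamoxifen day 7 libraries lie below all 3 vehicle A libraries for each of the 6 genes. These 6 were called lower from the same values, and the share of all genes without overlap was not counted.

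Of the 11 licensing genes, Orc1, Orc6 and Mcm6 fell and the median change was -0.74. Orc6, a small subunit of the origin recognition complex, stood at 205, 174 and 159 CPM in vehicle A and at 74.7, 65 and 103 at day 7 (-1.15 ± 0.24 SE, adjusted p = 0.00183). Orc1, the ATPase that begins assembly of that complex, stood at 75.8, 82.0 and 62.9 CPM and then at 42.8, 23.9 and 47.8 (-0.95 ± 0.24 SE, adjusted p = 0.0126). Neither gene's groups overlapped. The helicase subunits other than Mcm6 had changes of -0.46 (Mcm7) to -0.82 (Mcm4), and none passed. Mcm5, for example, stood at 1124, 1110 and 833.5 CPM in vehicle A and at 637, 412 and 782 at day 7, all lower (-0.74 ± 0.26 SE, adjusted p = 0.0837). Cdc6, a loader of the ring, had the smallest change of the group (-0.43, adjusted p = 0.426), and its groups overlapped. These are changes with TMM factors. Scaled to total counts, the helicase subunits other than Mcm6 changed by -0.01 (Mcm7) to -0.38 (Mcm4), with Mcm5 at -0.28. In the fit of well-expressed genes alone Mcm4 (-0.46) and Mcm5 (-0.37) passed, and Mcm7 stood at -0.10.

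Among the helicase activators Gins1 and Gins4 fell, and the median over the 5 genes was -0.75. Gins4 stood at 99.5, 130.2 and 97.7 CPM in vehicle A and at 37.8, 14.4 and 36.2 at day 7 (-1.89 ± 0.29 SE, adjusted p = 6.378e-05). The day 7 libraries lay well below all vehicle libraries, and the other 3 subunits of this complex of 4 had changes of -0.69 to -0.81. Cdc45, the partner that joins the Mcm ring to GINS, had a change of -0.66 (adjusted p = 0.0819), with all day 7 libraries lower.

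Pcna, the sliding clamp, stood at 394, 458 and 393.5 CPM in vehicle A and at 245, 170.4 and 290.0 at day 7 (-0.82 ± 0.24 SE, adjusted p = 0.0337). Its groups did not overlap. Of the clamp loader subunits Rfc4 (-0.97) and Rfc5 (-3.45) fell, and Rfc1, Rfc2 and Rfc3 had changes of -0.22 to -0.70 that did not pass. No polymerase or primase gene passed. Their median was -0.53, and Pold1, the catalytic subunit of polymerase delta, had a positive change (0.17, adjusted p = 0.798). In the flap, ligase and RPA group only Rpa2, a subunit of the single-strand binding protein, fell (-0.76 ± 0.24 SE, adjusted p = 0.0497), and Lig1, which seals Okazaki fragments, had a change of -0.71 (adjusted p = 0.133).

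The E2F and chromatin genes had the median nearest to 0 (-0.21). Chaf1b stood at 215, 272 and 205 CPM in vehicle A and at 116, 71.7 and 133 at day 7, without overlap (-1.11 ± 0.25 SE, adjusted p = 0.00474). Its partner Chaf1a had a change of 0.01, E2f1 of -0.21, the repressor E2f8 of 0.30 and Uhrf1, which maintains DNA methylation behind the fork, of -0.37. None of these 4 passed, and the groups of each overlapped. Read against the promoters, 10 of the 22 members without an E2F spelling fell, with a median change of -0.77, and 2 of the 13 with one fell, with a median of -0.69. These counts were made after the values were seen and carry no test.

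The members Mcm6, Rfc5, Dut and, less closely, Cdt1 followed a course across the libraries that most other members did not share. They were singled out after their values were seen. Mcm6, a helicase subunit, stood in MEP at 119, 397 and 256 CPM in vehicle A, at 428, 1300, 730.1 and 948 at day 3 and at 56.9, 40.2 and 66.1 at day 7. It lay above all vehicle libraries at day 3 and below all of them at day 7. Under vehicle C it spread from 434 to 2003 CPM and under ruxolitinib from 1679 to 2202. Mcm5, part of the same ring, ran from 412 to 1872 CPM over the 16 MEP libraries, a far narrower span than the 40.2 to 2202 of Mcm6.

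Rfc5 stood at 37.7, 95.9 and 79.8 CPM in MEP of vehicle A, at 108, 256, 157 and 195 at day 3 and at 6.87, 4.25 and 8.34 at day 7. Dut, which removes dUTP, stood at 37.1, 104 and 85.3, then at 145, 341, 218 and 285, then at 17.8, 13.7 and 17.7. Both genes were high at day 3 and low at day 7, with no overlap between the 3 groups. Over the 32 libraries the log2 CPM of Rfc5 correlated with that of Mcm6 at r = 0.988, of Dut at 0.967, of Cdt1 at 0.805 and of Gins4 at 0.785, and the other 37 members ranged from 0.0871 to 0.71. The libraries share scaling, depth and batch, so these are descriptions over jointly scaled values.

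Genes outside the set followed the same course. Of 9258 well-expressed genes other than Mcm6, 325 correlated with it at 0.9 or above, the closest being Pfn1 (profilin, an actin-binding protein, r = 0.991), 2310044H10Rik and Anapc2, a subunit of the anaphase-promoting complex. In MEP, 218 of these 325 genes were called lower at tamoxifen day 7, 105 higher at day 3, 112 higher under ruxolitinib and 194 higher in vehicle C than in vehicle A, which no treatment separates. In LSK cells 0 were called in any treatment comparison. Choosing genes for their likeness to Mcm6 fixes these directions, so the counts are a description. Whether the course is technical was not tested, and this bears on the size of the day 7 falls of Mcm6, Rfc5 and Dut. It also bears on that of Gins4, whose r with Mcm6 (0.785) was close to that of Cdt1 (0.805). Without Mcm6, Rfc5, Dut and Cdt1, 11 of 38 were lower at day 7, Gins4 among them, and the median change was -0.70.

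**Figure D5:**
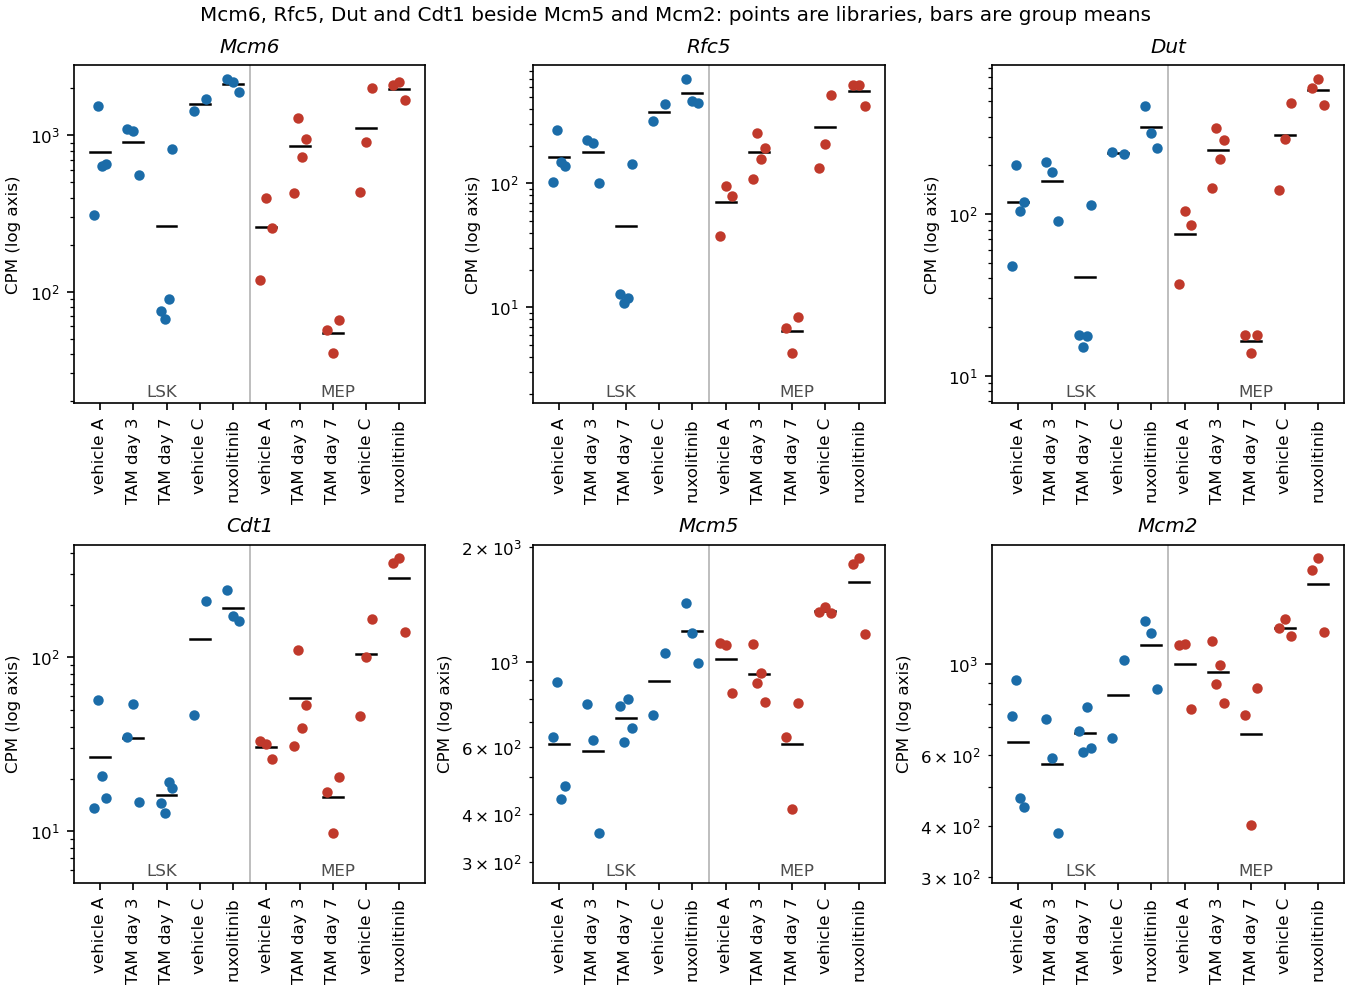
CPM on a log axis for Mcm6, Rfc5, Dut and Cdt1 beside the ring subunits Mcm5 and Mcm2 in every library (points; bars are group means), LSK groups on the left and MEP groups on the right. In LSK cells at tamoxifen day 7, replicate 4 stands at 815 CPM for Mcm6 and the other 3 libraries at 66.4 to 90.1.

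At tamoxifen day 3, 2 members passed in MEP. Mcm6 (1.72 ± 0.43 SE, edgeR adjusted p = 0.0414) and Dut (1.71 ± 0.36 SE, adjusted p = 0.0156) rose and no member fell, against 0.886% of all genes and 2.48% of well-expressed genes called higher and 0.324% of all genes called lower. The median change was -0.13. Rrm2 already lay below vehicle in all 4 libraries but missed the threshold (-0.87 ± 0.24 SE, adjusted p = 0.0787). In the fit of well-expressed genes alone Rrm2 passed (-0.82, adjusted p = 0.0005597) together with Orc6 (-0.41), where 2.93% of genes were lower. Neither Mcm6 nor Dut passed without vehicle A replicate 1 or 3 or day 3 replicate 2 or 3, and 1 of them passed without day 3 replicate 4.

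Between day 3 and day 7, 8 members fell and none rose in MEP, against 6.43% of all genes and 18.2% of well-expressed genes called lower. They were Rfc5 (-4.78), Mcm6 (-3.97), Dut (-3.91), Gins4 (-1.91), Cdt1 (-1.89), Rrm2 (-1.36 ± 0.25 SE, edgeR adjusted p = 0.000382), Tk1 (-0.91) and Chaf1b (-0.90). Day 3 and day 7 libraries did not overlap for any of the 8, which were called from the same values. How many of all genes had no overlap was not counted. Leaving out day 7 replicate 2 reduced the count to 5.

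Under ruxolitinib (labelled day 7) 3 members rose in MEP and none fell with TMM scaling. Scaled to total counts 3 were higher and 7 lower, Rrm2 (-0.66) and Pole (-0.60) most, and the share over all genes was not counted there. With TMM, Cdt1 (1.46 ± 0.43 SE, edgeR adjusted p = 0.00982), Pold1 (1.04 ± 0.29 SE, adjusted p = 0.00709) and Dut (0.93 ± 0.37 SE, adjusted p = 0.0464) rose, and the median change was 0.18. Of all genes 3.43% were called higher and 38.5% lower, and of well-expressed genes 7.13% were called higher. The ruxolitinib libraries detected 18876 to 24709 genes, against 27855 to 30449 in vehicle C, the median of all genes tested was -1.07, and that of well-expressed genes was 0.11. Megakaryocyte markers (8 of 13 higher, 1 lower) summed to 326 to 498 CPM against 65.2 to 163 in vehicle C, granulocyte and monocyte markers (6 of 13 higher, 4 lower) to 66.1 to 212 against 8.05 to 27.4, stem cell markers (6 of 14 higher, 1 lower) to 328 to 342 against 120.5 to 161, and mast cell and basophil markers (4 of 7 higher, 1 lower) to 19.4 to 52.8 against 3.72 to 8.97. The part of these differences in the values of the members was not tested.

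Pold1 stood at 395, 359.5 and 392.2 CPM in vehicle C and at 910.5, 868 and 573 under ruxolitinib. All treated libraries were higher, and the call held in all 14 settings tried. Cdt1, the licensing factor that is destroyed once S phase begins, stood at 46.0, 101 and 166 CPM and then at 348, 371 and 139.8, so that 1 treated library overlapped the vehicle range. Rrm2 stood at 1472, 1552 and 1734 CPM and then at 1132, 1284 and 1082, all lower, without passing (-0.44 ± 0.26 SE, adjusted p = 0.169). In the fit of well-expressed genes alone Pold1 and Uhrf1 (0.47) were higher and Rrm2 (-0.55) and Pole (-0.48) lower, with 4.18% of genes higher and 9.58% lower. Only 1 member was called without vehicle C replicate 1 or ruxolitinib replicate 2, and 6 were called without vehicle C replicate 3.

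The responses to tamoxifen at day 7 and to ruxolitinib were compared directly, each against its own vehicle. In MEP 21 of 42 members had a more negative response to tamoxifen, and none a more positive one, against 9.46% of all genes and 27.4% of well-expressed genes. The differences included Rfc5 (-4.41), Dut (-3.14), Mcm6 (-3.08), Cdt1 (-2.40), Gins4 (-2.06), Rrm2 (-1.78 ± 0.37 SE, edgeR adjusted p = 0.000987), Chaf1b (-1.45) and Orc6 (-1.28), and the median was -0.92 against -0.49 for well-expressed genes. The count was 13 without ruxolitinib replicate 2. In LSK cells no member differed. The 2 treatments carry different batch labels, and the vehicle libraries of the batches share sample numbers, so batch and treatment cannot be told apart beyond the subtraction of each vehicle.

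The vehicles themselves were not alike. In MEP, Mcm6 (2.12), Dut (2.02), Rfc5 (2.0), Cdt1 (1.78) and Chaf1a (1.27) were higher in vehicle C than in vehicle A, against 2.75% of all genes and 7.81% of well-expressed genes. With total counts none of these 5 passed, but the differences stayed at 1.70, 1.60, 1.58, 1.41 and 0.93 (edgeR, adjusted p = 0.0664 to 0.0826), and none passed with well-expressed genes alone (adjusted p = 0.0721 to 0.1003). None passed without vehicle A replicate 3, and 3 passed without vehicle C replicate 3. In LSK cells no member passed between the vehicles. The tests between vehicles, in MEP and in LSK cells, do not use the shared sample numbers. Over the 2 LSK pairs with the same number, Cdt1 was on average 1.81 log2 units higher in batch C, Dut 1.26, Mcm6 1.18 and Rfc5 1.16.

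In LSK cells no member passed in any treatment comparison. At tamoxifen day 3 the median change was -0.17, and 0% of genes were called in either direction. At day 7 the median was 0.07, with 0.104% of genes called, and Rrm2 stood at 362, 286, 362 and 337 CPM against 350.1, 357, 328 and 274 in vehicle A, with full overlap. Granulocyte and monocyte markers summed to 8162 to 16040 CPM in LSK libraries of day 7 and to 1650 to 5406 in vehicle A, with 4 of 14 called higher. Macrophage markers summed to 1605 to 11150 CPM at day 3 and to 192 to 4391 in vehicle A. Lymphoid markers summed to 482 to 8000 CPM in vehicle A, to 138 to 289 at day 3 and to 252 to 522 at day 7. The part of these markers in the values of the members was not tested. Mcm6, Rfc5 and Dut were low in 3 of the 4 day 7 libraries. Without replicate 4 these 3 were called lower (Mcm6 -3.35, Rfc5 -3.80 and Dut -2.82). That library was the highest of the 4 for each of them, so leaving it out favours such a call. The calls are a description and no support for a fall in LSK cells.

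Ruxolitinib gave positive changes for all 42 members in LSK cells, with a median of 0.44 against 0.15 for well-expressed genes, but none passed and 0.0223% of genes were called. The vehicle C group had only 2 LSK libraries. The largest change among members was that of Fen1, the flap endonuclease (1.27 ± 0.53 SE, unadjusted p = 0.0275 in edgeR), at 10.9, 6.68 and 7.88 CPM against 2.67 and 4.37. Scaled to total counts 38 of the 42 changes were positive. With both vehicle batches pooled 21 members were called higher, and the share over all genes was not counted there. That pooling counts sample numbers 12 and 18 in both batches, and the vehicle A libraries it adds had lower levels of most members than vehicle C.

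Whether the day 7 response differed between the cell types was tested as an interaction. All 42 differences were negative, meaning a lower response in MEP, with a median of -0.83 against -0.31 for well-expressed genes. Only Rrm2 passed (-2.37 ± 0.40 SE, edgeR adjusted p = 0.00194), where 0.162% of all genes and 0.465% of well-expressed genes did. In the fit of well-expressed genes alone 7 members passed, with 5.45% of genes: Rrm2 (-1.98), Orc6 (-0.87), Mcm5 (-0.74), Mcm4 (-0.71), Mcm10 (-0.71), Rrm1 (-0.69) and Tyms (-0.66). No member passed for the response at day 3 or to ruxolitinib. For the other 41 members the test over all genes did not show a larger fall in MEP than in LSK cells. Left-out libraries gave 1 or 2 members, and 2 were called without LSK vehicle A replicate 2 or LSK day 7 replicate 3.

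Further genes were counted in MEP at tamoxifen day 7, where 20.4% of well-expressed genes fell. Of 48 further replication genes tested 22 fell (45.8%) and none rose, with a median of -0.72 that equals that of the members to 2 decimals, and the largest changes were in Orc2 (-2.81), Pole4 (-2.56) and Dscc1 (-2.19). Of 32 further nucleotide synthesis genes 8 fell (25%, near the share of well-expressed genes) and none rose (median -0.57), led by Mthfd2 (-3.00), a mitochondrial folate enzyme, and Ctps (-1.99), which makes CTP. Of 30 genes of a later phase of the cycle, mitosis and the spindle, 23 fell (76.7%) and none rose (median -0.91), led by Cdc20 (-4.69), Ccnb2 (-2.60) and Cenpa (-2.25). Pole4, Dscc1, Ctps, Cdc20 and Ccnb2 correlated with Mcm6 over the 32 libraries at 0.803 to 0.881, and Orc2, Cenpa and Mthfd2 at 0.494 to 0.64.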

How the data were processed

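Gene counts of 32 libraries, 16 of LSK cells and 16 of MEP, were analysed. The authors deposited whole-number counts by gene symbol, without normalization. The submitters' processing notes name STAR, featureCounts and mm10. No source used here gives their versions, the annotation, the strand setting or how multi-mapped and overlapping reads were handled. Overlapping genes and near-identical copies (Pcna-ps1, Pcna-ps2 and Tyms-ps among them) may therefore hold each other's reads or lack reads of their own. Groups came from the titles and characteristics, all count columns were mapped (0 left unused), and no entry lacked a gene name.

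From the counts, edgeR 4.0.16 in R 4.3.3 was fitted with the quasi-likelihood test, TMM scaling, the filterByExpr filter (minimum count 10) and Benjamini-Hochberg adjustment (threshold 0.05), in 1 fit of 16 libraries per cell type, or of all 32 for MEP against LSK and for interactions. Standard errors are the log2 change divided by the square root of F. Fits were tested on simulated data with 200 changed genes per comparison, of which 149 to 200 were recovered. The changed genes were well expressed, and their changes were set larger than the median member change of every comparison. No scaling difference between groups was simulated, and recovery of smaller changes was not tested. The alternatives were RLE factors, no filter, well-expressed genes only (mean of at least 10 CPM), both vehicles pooled, only the 2 groups compared, DESeq2 1.42.0, a replicate block, limma 3.58.1 voom with the sample number as a block, each library left out, and, added after the data were seen, total counts. Values in every library are given for called members (at most 8 per comparison, by size of change) and for a panel of members. Genes of other lists are named as the 3 called genes with the largest change. The members and lists were chosen with earlier results of these data known. In the lists Supt16, Sptb and Adgre1 were matched through older symbols, and Ticrr, Hbb-bs and Hbb-bt were not matched.

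Chi-square per degree of freedom between libraries of a group was at least 13.7, far above sampling noise. For the 5 pairs of vehicle A and C libraries with the same sample number it was 45.1 to 105. For the 12 such pairs with different numbers it was 74.3 to 207, so none was a copy. Each vehicle C library was still closest to the vehicle A library of its own number, and the labels do not say whether such pairs share animals or RNA. Deviations of treated and vehicle libraries with the same title number correlated at -0.33 to 0.35, and those of LSK and MEP libraries with the same sample number at -0.175 to 0.32, so these numbers were not treated as pairs. The numbers shared by the vehicle libraries were not used in the main fits either. Depth ran from 11.2 to 55.5 M counts, and the spread between libraries exceeded counting error. The gene models used for lengths and overlaps were GENCODE M21, and promoters came from RefSeq (GRCm38.p6).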

Additional observations from a re-analysis of the deposited data

Results flagged for a closer look

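Over 126 pairs of a member and a group of 4 libraries, 6 had a library that stood apart from the other 3 by Dixon's criterion, where chance gives about 1 in 20. At tamoxifen day 7 in LSK cells, replicate 4 stood at 814.9 CPM for Mcm6 (others 66.4 to 90.1), at 144.7 for Rfc5 (10.9 to 12.8) and at 113.2 for Dut (15.0 to 17.7). In the same group replicate 2 stood at 366.3 CPM for Pold1, below the other 3 (509 to 527). For Cdt1, LSK vehicle A replicate 2 stood at 56.63 CPM, above the other 3 (13.6 to 20.9). For Pold1, MEP tamoxifen day 3 replicate 4 stood at 379.7 CPM, below the other 3 (550.1 to 581). The causes were not tested.

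The response of Rrm2 at tamoxifen day 7 differed between the cell types, with an interaction term (MEP minus LSK) of -2.365 on the log2 scale (edgeR, adjusted p = 0.00194). All 3 MEP libraries of day 7 lay below all vehicle A libraries, whereas the LSK groups overlapped.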

How the results depend on the processing

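The 148 calls, each of 1 member in 1 comparison, were refitted under the alternatives, which gave 1451 refits. Of these refits 1164 kept direction and call, 287 kept direction and lost the call, and 0 reversed. Only calls that had passed were refitted, so few reversals could arise. Counts of members called moved more, and for most of the settings below the share over all genes was not counted. In MEP at tamoxifen day 7, 30 were lower with both vehicles pooled and 23 with DESeq2, and 2 were higher both with well-expressed genes only and with total counts. The fit with a replicate block (title numbers that do not pair the libraries) gave 11 lower there. In MEP at day 3, 2 were lower with well-expressed genes only and 1 each with RLE factors, total counts, pooled vehicles, DESeq2, only the 2 groups and the replicate block, and 1 was higher with RLE factors and 0 with pooled vehicles. Under ruxolitinib in MEP, 5 were higher with RLE factors, 10 with pooled vehicles, 6 with DESeq2 and 1 with only the 2 groups, and 2 were lower with well-expressed genes only and 7 with total counts. In LSK cells under ruxolitinib 21 were higher with pooled vehicles. For vehicle C against A in MEP, 0 were higher with well-expressed genes only or total counts. The difference of the 2 responses in MEP had 12 lower with well-expressed genes only. With those genes only, MEP against LSK had 1 lower in vehicle A, 1 at day 3, 4 at day 7 and 3 under ruxolitinib, and 6 higher at day 7 and 14 under ruxolitinib, and the interaction at day 7 had 7 lower. With the sample number as a replicate block in voom, 0 were lower in MEP against LSK at day 7. The causes were not tested. Leaving out each library gave, for MEP at day 7, 7 to 19 lower, at day 3 0 to 2 higher and 0 to 1 lower, under ruxolitinib 1 to 6 higher, for day 7 against day 3 5 to 10 lower, for vehicle C against A 0 to 5 higher and for the difference of responses 13 to 30 lower. For LSK cells at day 7 it gave 0 to 3 lower. For MEP against LSK it gave 15 to 29 higher in vehicle A, 8 to 18 in vehicle C, 8 to 29 at day 3, 0 to 2 at day 7 (and 0 to 3 lower) and 12 to 26 under ruxolitinib, and for the interaction at day 7 1 to 2 lower. Low counts limit the tests of the lowest members, Fen1 above all, and why they are low was not tested. Groups of 2 to 4 libraries limit every test.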

Other observations

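In LSK cells at tamoxifen day 7, replicate 4 stood more than 2 log2 units above each of replicates 1 to 3 in 163 well-expressed genes, among them the members Mcm6, Rfc5 and Dut, and below them in 0. Vehicle libraries that carry the same sample number in batches A and C were also set side by side. The median member was 0.40 log2 units higher in batch C in MEP, with 39 of 42 positive, and 0.22 higher in LSK cells, with 34 of 42 positive.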
